A study of Homo sapiens with 6 samples.

Results

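EGR1, EGR2 and EGR3, IER2, IER3 and IER5, NR4A1, NR4A2 and NR4A3, and BTG2 are immediate early genes, which cells switch on within minutes of a growth factor or stress signal from factors already present. The 10 genes were taken by symbol from a table of raw counts per gene for 32078 named genes in 6 libraries, and each symbol matched 1 row. In GENCODE v29 (GRCh38) all are protein-coding genes, with EGR1 on chromosome 5, EGR2 on 10, EGR3 on 8, IER2 on 19, IER3 on 6, IER5 and BTG2 on 1, NR4A1 on 12, NR4A2 on 2 and NR4A3 on 9. The vesicle-treated group, called EV-labelled, was PANC-1 cells given extracellular vesicles made by cancer-associated fibroblasts (CAFs), in 3 libraries. The control-labelled group was PANC-1 cells with no treatment, also in 3 libraries. PANC-1 is a widely used human cell line derived from a carcinoma of the pancreas, so by their labels all 6 libraries share 1 genetic background. The labels give no vesicle dose or exposure time and do not say what control cells received in place of vesicles, and the protocol text speaks of vesicle treatment for every library, controls included. The comparison asked which transcripts differed between the cells given vesicles and those that were not.

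As background, a growth factor that activates the ERK kinases leads to phosphorylation of ternary complex factors such as ELK1 and ELK4, which sit with SRF (serum response factor) on promoters that hold a CArG box. Signals through cyclic AMP and calcium act on some of the same promoters through CREB. The EGR proteins are zinc finger transcription factors, the NR4A proteins are orphan nuclear receptors, and IER2, IER3 and IER5 are small proteins named only for their rapid induction. BTG2 is an antiproliferative adaptor that brings the CCR4-NOT deadenylase to messenger RNAs. In carcinoma cells with an active RAS pathway, such genes can be transcribed without added serum.

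Total counts were 21647493 to 27107004 in the EV-labelled libraries and 23616966 to 27498709 in the control-labelled libraries. Levels are in CPM (read counts relative to library size), in which TMM factors put the libraries on 1 scale. The labelled cell type was checked against marker genes. KRT8 ranged from 3199 to 3561 CPM in EV-labelled libraries and from 2938 to 3288 CPM in control-labelled libraries, and did not pass the test (0.14 on the log2 scale, adjusted p = 0.0687). Of 5 tested carcinoma markers 3 fell in the EV-labelled libraries, against 20.7% of all tested genes by the rule given below. They were MUC1 (-1.35, adjusted p = 1.89e-08), KRT19 (-0.48, adjusted p = 5.78e-06) and VIM (-0.37, adjusted p = 2.54e-05). The summed level of the 8 listed carcinoma markers was 6720 to 7300 CPM in EV-labelled and 7030 to 7640 CPM in control-labelled libraries. VIM still averaged 1928 CPM in EV-labelled and 2496 CPM in control-labelled libraries. KRT18 averaged 1375 CPM in EV-labelled and 1271 CPM in control-labelled libraries and did not pass (0.11, adjusted p = 0.132). KRT7 had too few counts to be tested, at 0.037 to 0.12 CPM in EV-labelled and 0.21 to 0.37 CPM in control-labelled libraries. No library had a count of EPCAM or CDH1, and 3 counts in the shallowest library would be 0.138 CPM. The listed carcinoma markers were thus split, with KRT8, KRT18, KRT19 and VIM well counted and KRT7, EPCAM and CDH1 nearly or wholly absent. This check does not settle the labelled identity. The summed fibroblast markers ranged from 197 to 216 CPM in EV-labelled libraries and from 115 to 141 CPM in control-labelled libraries. Nearly all of that sum was COL1A2, which rose (0.71 on the log2 scale, adjusted p = 3.72e-07), and COL3A1, while DCN, LUM, THY1 and POSTN, 4 of the 9 fibroblast markers in the table, had 0 counts in all 6 libraries. Immune markers summed to 0.367 to 1.13 CPM in EV-labelled and 0.843 to 0.987 CPM in control-labelled libraries, with PTPRC at 0 in all 6 and ITGAM not passing (-0.57, adjusted p = 0.318). Endothelial markers summed to 4.42 to 5.36 CPM in EV-labelled and 4.28 to 5.06 CPM in control-labelled libraries, nearly all of it CDH5 (0.15, adjusted p = 0.415), with PECAM1 and VWF under 0.34 CPM and KDR and TEK at 0. The part of the carcinoma and fibroblast marker differences in the results below was not tested. In bulk RNA, fewer cells that express a gene and less of its RNA per cell cannot be told apart.

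Of the 10 genes, 8 passed the filter on low counts and 5 of these fell in the EV-labelled libraries: EGR1, EGR3, IER2, IER3 and NR4A1. Calls rest on edgeR's quasi-likelihood test over 14670 genes, with an adjusted p under 0.05 taken as a change. By this rule 40.9% of all tested genes changed, 20.7% being lower and 20.2% higher, and none of the 8 was called higher. In 25.5% of all tested genes every EV-labelled library lay below every control-labelled one. IER5, BTG2 and EGR2 did not pass the test, and NR4A2 and NR4A3 had too few counts to be tested. The 5 lower genes were each lower by close to the same size, between 1.91-fold for EGR3 and 2.17-fold for EGR1. With a further condition of at least 1.5-fold, which 7.43% of all tested genes met on the lower side, the number of lower genes stayed at 5.

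**Figure D1:**
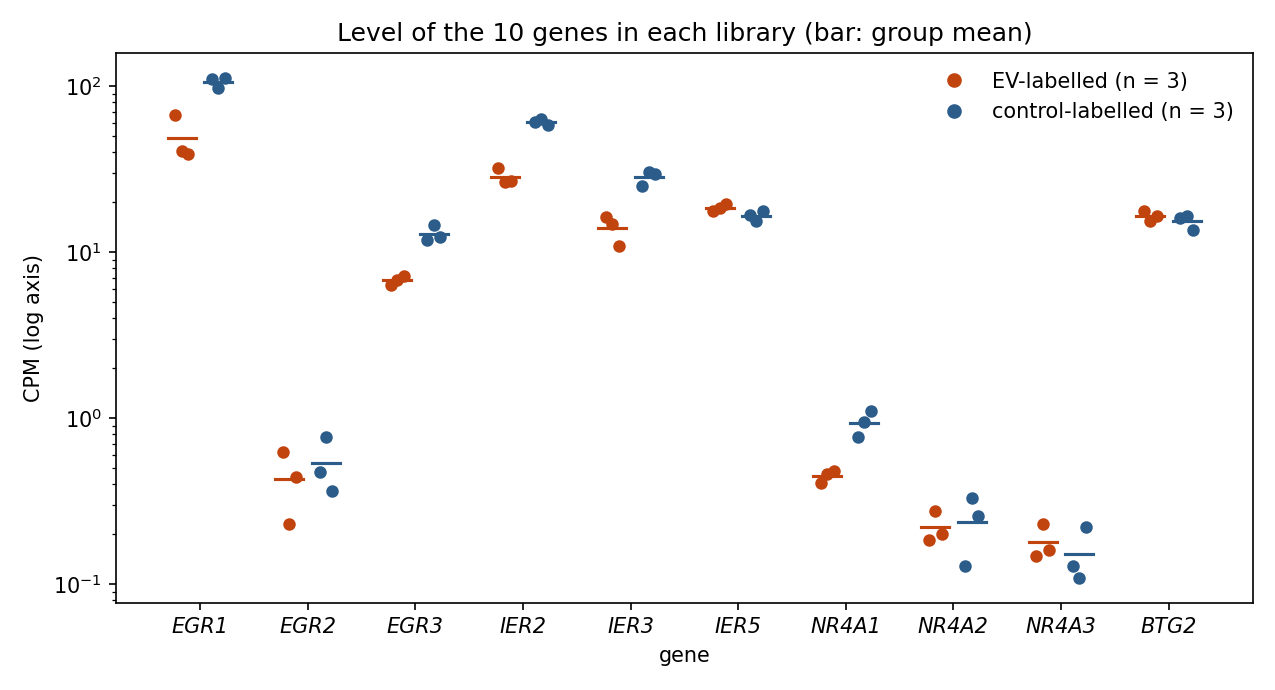
CPM of the 10 genes on a log axis, with 1 point per library and a bar at the mean of 3 libraries, EV-labelled on the left of each pair and control-labelled on the right. The points of EGR1, EGR3, IER2, IER3 and NR4A1 do not overlap between groups, while those of the other 5 genes do.

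EGR1, the best known serum-induced zinc finger factor, was at 67.2, 40.5 and 39.0 CPM in the EV-labelled libraries, against 110, 97.6 and 112 CPM in the control-labelled libraries. The groups did not overlap, and EV replicate 1 lay between the other EV-labelled libraries and the controls. The log2 fold change was -1.12 ± 0.13 (SE, adjusted p = 2.41e-06), and without EV replicate 1 it was -1.42. Its standard deviation was 32.4% of the mean in the EV-labelled group and 7.41% in the control-labelled group.

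EGR3, a related factor that is itself often induced after EGR1, was at 6.32, 6.78 and 7.23 CPM in EV-labelled libraries, against 11.9, 14.5 and 12.4 CPM in control-labelled libraries. All EV-labelled values were below all control-labelled ones, and EV replicate 1 did not stand apart here. The log2 fold change was -0.93 ± 0.11 (SE, adjusted p = 3.1e-06). A processed transcript on the opposite strand, AC055854.1, shares 164 exon bases with EGR3 in GENCODE v29 and had 20 to 29 counts in EV-labelled and 31 to 44 in control-labelled libraries, well under the 148 to 180 and 277 to 397 counts of EGR3. The sources used here do not say whether the authors counted by strand.

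EGR2, best known for its part in hindbrain patterning and myelin formation, was near the limit of detection. It had 17, 5 and 11 counts in EV-labelled libraries and 11, 21 and 10 counts in control-labelled libraries, and the groups overlapped. The log2 fold change was -0.27 ± 0.41 (SE, adjusted p = 0.63), with a 95% interval from -1.14 to 0.59, and that interval reaches the size of the fall in EGR1. EGR1 made up 90.6%, 85.2% and 83.5% of the counts of EGR1 to EGR3 together in EV-labelled libraries, against 89.9%, 86.5% and 89.8% in control-labelled libraries. The family total was thus mostly EGR1 in both groups, and its make-up overlapped between them.

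The promoters of 4 of the genes are shown because they differ in the sites named above. The sequences are the 250 bases before a transcription start of RefSeq (GRCh38.p14), 5′ to 3′ on the gene's strand, with matches in capitals. For EGR1 this is chr5:138465229-138465478 (plus strand), for EGR2 chr10:62816367-62816616 (minus strand, the most downstream of 3 listed starts), for IER2 chr19:13150161-13150410 (plus strand) and for BTG2 chr1:203305269-203305518 (plus strand). The capitals mark CArG boxes, the core of the cyclic AMP element, TGACG on either strand, and the EGR site GCGGGGGCG.
EGR1: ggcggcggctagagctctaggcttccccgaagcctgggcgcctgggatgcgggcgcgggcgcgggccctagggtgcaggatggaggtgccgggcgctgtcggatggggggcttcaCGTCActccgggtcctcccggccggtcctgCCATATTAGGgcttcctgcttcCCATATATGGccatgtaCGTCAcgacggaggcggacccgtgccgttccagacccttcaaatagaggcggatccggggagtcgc
EGR2: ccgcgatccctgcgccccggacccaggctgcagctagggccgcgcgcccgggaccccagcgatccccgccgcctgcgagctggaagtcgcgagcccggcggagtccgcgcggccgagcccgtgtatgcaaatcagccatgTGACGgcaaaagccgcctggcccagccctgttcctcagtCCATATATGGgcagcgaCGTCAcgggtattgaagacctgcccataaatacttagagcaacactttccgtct
IER2: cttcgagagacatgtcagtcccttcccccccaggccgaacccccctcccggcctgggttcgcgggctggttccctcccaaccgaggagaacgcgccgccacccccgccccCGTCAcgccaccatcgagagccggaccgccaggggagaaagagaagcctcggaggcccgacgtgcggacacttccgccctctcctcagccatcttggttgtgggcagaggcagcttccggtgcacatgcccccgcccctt
BTG2: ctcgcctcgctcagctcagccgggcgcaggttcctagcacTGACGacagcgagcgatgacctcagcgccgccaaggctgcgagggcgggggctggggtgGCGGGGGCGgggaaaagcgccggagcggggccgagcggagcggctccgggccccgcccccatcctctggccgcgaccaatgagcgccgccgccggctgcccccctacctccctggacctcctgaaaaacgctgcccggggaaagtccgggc

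The windows searched ran from 250 bases before to 50 after each start, on both strands, and 7 of the 10 genes matched the RefSeq table, with 10 windows. EGR3 and IER3, which fell, and NR4A2 had no window and were not searched. EGR1 held 2 CArG boxes, at 105 to 96 and at 83 to 74 bases before its start, and EGR2 held 1, at 71 to 62 bases. The window of neither IER2, which fell, nor IER5 or BTG2, which did not pass the test, held a CArG box, and neither did the 2 windows of NR4A1. A CArG box was present in 1.29% of all 35116 windows. The core TGACG was found in 5 of the 10 windows and in 24.6% of all windows. It came with EGR1, EGR2, IER2, BTG2 and NR4A3, which had 4 copies. The complete cyclic AMP element TGACGTCA, which contains that core, was in none of the 10 windows and in 1.85% of all. The EGR site GCGGGGGCG was in the BTG2 window alone among the 10 and in 5.07% of all, and the form GCGTGGGCG was in none of the 10 and in 0.795% of all. These matches describe the sequence only.

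IER2, a nuclear protein that takes part in transcription control, was at 32.0, 26.5 and 26.8 CPM in EV-labelled libraries, against 60.6, 63.2 and 58.4 CPM in control-labelled libraries. The 2 ranges lay far apart relative to the spread within each. Its log2 fold change of -1.09 ± 0.08 (SE) had the lowest adjusted p of the 8 tested genes (3.01e-09). In GENCODE v29 an antisense gene, AC011446.2, shares 946 exon bases with IER2. It is not among the named genes counted, so its reads could not be set beside those of IER2.

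IER3, also known as IEX-1, is a stress-induced regulator of apoptosis and ERK signalling. It was at 16.3, 14.8 and 10.97 CPM in EV-labelled libraries, against 24.9, 30.6 and 29.5 CPM in control-labelled libraries. EV replicate 3 was the lowest, and no EV-labelled library reached the lowest control. The log2 fold change was -1.02 ± 0.12 (SE, adjusted p = 1.53e-06). Its antisense gene IER3-AS1 had 2 or 3 counts in every library.

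IER5, a p53 target that promotes the activity of the heat shock factor HSF1, was not called, unlike IER2 and IER3. It was at 17.6, 18.6 and 19.5 CPM in EV-labelled libraries, against 16.8, 15.4 and 17.6 CPM in control-labelled libraries, so the groups met at their edges. The log2 fold change was 0.16 ± 0.09 (SE, adjusted p = 0.162), with a 95% interval from -0.03 to 0.35. That interval lies wholly above those of IER2 (-1.25 to -0.93) and IER3 (-1.26 to -0.77).

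BTG2 likewise showed no called difference. It was at 17.8, 15.5 and 16.5 CPM in EV-labelled libraries, against 16.2, 16.6 and 13.7 CPM in control-labelled libraries. The ranges overlapped, and the log2 fold change was 0.10 ± 0.10 (SE, adjusted p = 0.416) with a 95% interval from -0.10 to 0.31.

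**Figure D2:**
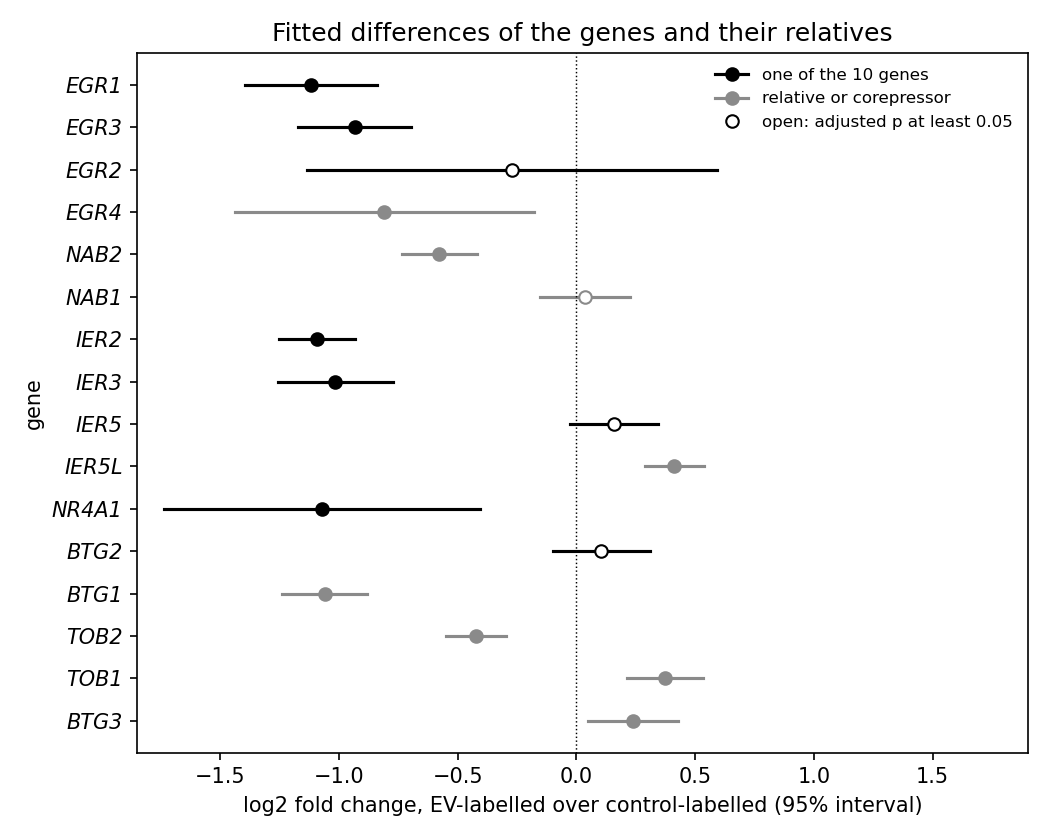
Fitted log2 fold change, EV-labelled over control-labelled, with its 95% interval, for the 8 tested genes (black) and for EGR4, the NAB corepressors, IER5L and the BTG and TOB relatives (grey); open points had an adjusted p of at least 0.05. EGR1, EGR3, IER2, IER3 and NR4A1 lie between -1.12 and -0.93, and IER5 and BTG2 at 0.16 and 0.10.

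Among the orphan receptors, NR4A1 (Nur77) was the most counted but stayed low, at 11, 10 and 12 counts in EV-labelled libraries, against 18, 26 and 30 counts in control-labelled libraries. In CPM these were 0.407, 0.458 and 0.482 in the EV-labelled group and 0.771, 0.951 and 1.10 in the control-labelled group, without overlap. A long noncoding gene on the opposite strand, AC025259.3, shares 754 exon bases with NR4A1 and had 0 counts in all 6 libraries. The log2 fold change was -1.07 ± 0.32 (SE, adjusted p = 0.0111). This call is the least secure of the 5, since it was lost with DESeq2 (-1.06, adjusted p = 0.0793) and without control replicate 3 (-0.94, adjusted p = 0.0542).

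NR4A2 (Nurr1), known for its role in dopamine neurons, had 5, 6 and 5 counts in EV-labelled libraries and 3, 9 and 7 counts in control-labelled libraries. NR4A3 (NOR1) had 4, 5 and 4 counts in EV-labelled libraries and 3, 3 and 6 counts in control-labelled libraries. Neither separated the groups, and both stayed between 0.11 and 0.329 CPM, where 3 counts make 0.11 to 0.138 CPM. Counts this low leave all but a large change in either out of reach. Without the count filter, the log2 fold change was -0.14 ± 0.61 for NR4A2 (SE, adjusted p = 0.911) and for NR4A3 0.21 ± 0.73 (SE, adjusted p = 0.879).

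Levels were set against each other per kilobase of exon, with the exon union of GENCODE v29 as length. EGR1 was the highest of the 10 genes in both groups, at 15.6 ± 5.06 CPM per kilobase in EV-labelled libraries and 34.0 ± 2.52 in control-labelled libraries (SD, n = 3 each). IER3 and IER2 came next, at 10.3 ± 2.03 and 9.26 ± 1.01 CPM per kilobase in EV-labelled libraries and 20.9 ± 2.25 and 19.8 ± 0.781 in control-labelled libraries (SD, n = 3 each), and their libraries overlapped in both groups. BTG2, IER5 and EGR3 followed in that order in both groups with no overlap between neighbours, BTG2 at 6.01 ± 0.431 in EV-labelled and 5.61 ± 0.567 in control-labelled libraries (SD, n = 3 each). EGR2 and the 3 NR4A genes were all under 0.21 CPM per kilobase in every library. Among these EGR2 and NR4A1 overlapped in both groups, NR4A1 and NR4A2 in the EV-labelled group and NR4A2 and NR4A3 in the control-labelled group.

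Count ratios between genes of the same library need no scaling between libraries, and 6 pairs, chosen after the values were seen, were formed. The ratio of IER2 to IER5 counts was 1.82, 1.43 and 1.38 in EV-labelled libraries, against 3.60, 4.12 and 3.31 in control-labelled libraries. The ratio of EGR1 to BTG2 counts was 3.77, 2.62 and 2.37 in EV-labelled libraries, against 6.83, 5.89 and 8.20 in control-labelled libraries. In both pairs every EV-labelled ratio was below every control-labelled one, and the same held for IER3 to IER5 and EGR3 to BTG2. With 3 libraries a group, the two-sided exact permutation test cannot go below p = 0.1, which these 4 pairs reached (p = 0.15 adjusted over the 6 pairs). The ratio of EGR1 to EGR3 averaged 7.33 ± 2.87 in EV-labelled and 8.36 ± 1.42 in control-labelled libraries (SD, n = 3 each, exact permutation p = 0.6), and that of IER2 to IER3 averaged 2.07 ± 0.337 in EV-labelled and 2.16 ± 0.242 in control-labelled libraries (SD, n = 3 each, exact permutation p = 0.6). These ratios of 2 lowered genes overlapped between the groups. Each pair set a gene already called lower over a gene not called or over another lowered gene. Which pairs separated was largely set by that choice, so these p-values are no further evidence. As a share of the 3 IER genes' counts, IER5 made up 26.7%, 31.0% and 34.0% in EV-labelled libraries, against 16.5%, 14.1% and 16.7% in control-labelled libraries.

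**Figure D3:**
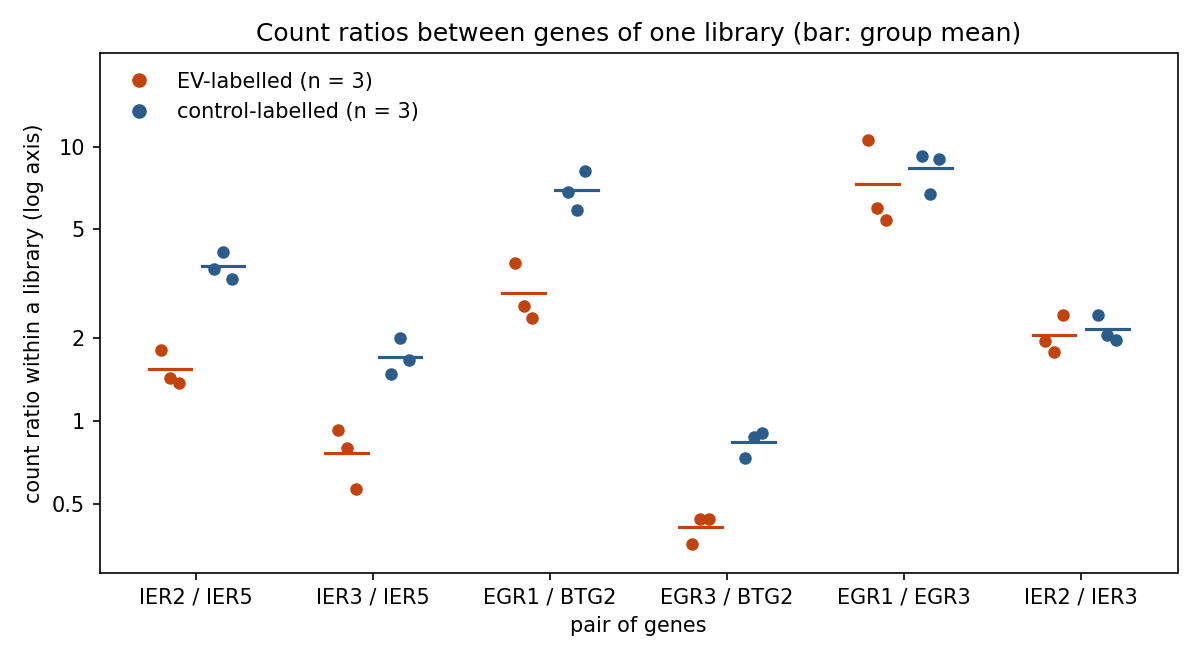
Ratio of the counts of 2 genes within each library on a log axis, with 1 point per library and a bar at the group mean, EV-labelled left and control-labelled right. The first 4 pairs set a lowered gene over IER5 or BTG2 and do not overlap between groups, while EGR1 over EGR3 and IER2 over IER3 do. The pairs were chosen after the values were seen, which largely set this outcome.

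Close relatives of the 10 genes were mixed. NAB2, a corepressor that EGR1 both induces and is restrained by, was at 40.7 ± 3.95 CPM in EV-labelled and 60.8 ± 4.35 CPM in control-labelled libraries (SD, n = 3 each, log2 fold change -0.58, adjusted p = 8.34e-06). EGR4 was at 0.871 ± 0.285 CPM in EV-labelled and 1.55 ± 0.490 CPM in control-labelled libraries (SD, n = 3 each, -0.81 ± 0.30 SE, adjusted p = 0.0378), while NAB1 (0.04, adjusted p = 0.784) and the related zinc finger gene WT1 (-0.60, adjusted p = 0.121) did not pass. The EGR4 call was lost in 6 of 15 other settings, among them DESeq2, limma-voom and the fits without EV replicate 1 or 2 or without control replicate 1 or 2. IER5L, a paralog of IER5, rose to 89.7 ± 1.496 CPM in EV-labelled libraries, against 67.4 ± 2.54 CPM in control-labelled libraries (SD, n = 3 each, 0.41, adjusted p = 2.23e-05), and IER3IP1, which despite its name is no IER gene, was at -0.02 (adjusted p = 0.92).

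BTG1, the paralog closest to BTG2, fell to 13.01 ± 0.656 CPM in EV-labelled libraries, against 27.1 ± 1.501 CPM in control-labelled libraries (SD, n = 3 each, log2 fold change -1.06 ± 0.09 SE, adjusted p = 1.95e-08). Its 95% interval (-1.24 to -0.88) lies wholly below that of BTG2. TOB2 fell (-0.42), TOB1 rose (0.37) and BTG3 rose (0.24, adjusted p = 0.0401), and BTG4 was not tested. The BTG3 call was lost in 5 of 15 other settings, among them upper-quartile scaling and the fits without EV replicate 2 or 3 or without control replicate 1 or 2. Of the 11 CCR4-NOT subunits that BTG and TOB proteins bind directly or through partners, 4 rose and 2 fell, with a median of 0.12, against 20.2% higher, 20.7% lower and a median of -0.01 over all tested genes. With so few genes the number lower is near the share over all genes. CNOT9 (0.29) and CNOT11 (0.28) rose and CNOT2 fell (-0.31), while the call of CNOT1 (-0.17, adjusted p = 0.0411) was lost in 6 of 15 other settings.

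Of 30 other immediate early genes, all of them tested, 25 were lower and 3 higher, with a median log2 fold change of -0.65, against 20.7% and 20.2% called and a median of -0.01 over all tested genes. ATF3 (-2.17), CCN1, which encodes a matricellular protein (-0.999), and KLF4, a Krüppel-like factor (-0.96), had the lowest adjusted p. The 3 higher ones were the cytokine feedback gene SOCS3 (0.52), the phosphatase gene DUSP2 (0.47) and ARC (1.08, at 1.07 CPM in EV-labelled and 0.509 CPM in control-labelled libraries), and CSRNP1 and SGK1 did not pass. The ARC call was lost with DESeq2 and without control replicate 3. The number lower ranged from 23 to 25 over the 15 other settings. The list was drawn up with earlier results of these data known, so its direction is no independent evidence.

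Among genes that act upstream, the share called was near the 40.9% over all tested genes. Of 12 genes for SRF, its cofactors and CREB factors, 4 fell and 1 rose, and of 14 genes of the RAS, ERK and p38 cascades 4 rose and 2 fell. SRF was at 152 ± 6.64 CPM in EV-labelled and 187 ± 3.07 CPM in control-labelled libraries (SD, n = 3 each, log2 fold change -0.30, adjusted p = 0.000369), ELK4 was at -0.57 and ATF1 at -0.32. MRTFB (0.24) was the 1 called higher, and in 9 of 15 other settings none was. The call of CRTC1, among the lower ones, was lost in 6 of 15. In the cascades RPS6KA1, the kinase RSK1, was at 0.58, HRAS at 0.27 and BRAF at -0.38. The ARAF rise was lost in 7 and the RPS6KA5 fall in 2 of 15 other settings. Messenger RNA levels do not measure the activity of these proteins. Of the partners with which NR4A1 can pair, RXRA rose (0.28), RXRB fell (-0.66) and RXRG was not among the genes counted. The ZFP36 proteins speed the decay of messages with AU-rich elements and are themselves rapidly induced. ZFP36L1 fell (-0.84), ZFP36 fell (-0.51) and ZFP36L2 rose (0.25), the last call being lost in 4 of 15 other settings.

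Of 18 genes known from other systems as EGR1 targets, 15 were tested, of which 6 fell and 3 rose, with a median of -0.07, against 20.7% lower and 20.2% higher over all tested genes. The number higher is at the share over all genes. TXNIP (-1.57), VEGFA (-1.55) and ATF3 (-2.17) had the lowest adjusted p, and GDF15, chosen after its value was seen, was at -3.06. NAB2, ATF3 and BBC3 each stand in more than 1 of these lists. PTGES (0.35), FASN (0.25) and PDGFA (0.33) were the higher ones, and the FASN call was lost in 2 and the PDGFA call in 3 of 15 other settings. Of 16 genes for p53 and its targets, the group to which BTG2 and IER5 also belong, 6 fell and 4 rose, with a median of -0.15, against the same shares over all tested genes. The number lower ranged from 4, without EV replicate 2 or without control replicate 3, to 8 with upper-quartile scaling. SESN2 (-2.03), GADD45A (-1.10) and BBC3 (-1.63) were lower, and ZMAT3 (0.71) and FAS (0.40) higher. CDKN1A, which encodes the cell cycle inhibitor p21, was at -0.37 (adjusted p = 0.0229), a call lost without EV replicate 2 and without control replicate 2 or 3. Of 12 heat shock genes, 8 rose, against 20.2% over all tested genes, and 1, HSF1, fell (-0.17, adjusted p = 0.0186). The HSF1 call was lost in 4 of 15 other settings, and that of HSF2, among the 8 that rose, in 7. HSPA1A (1.63) and HSPA1B (2.26) are near-identical copies whose reads are hard to separate, and DNAJA1 rose by 0.64 on the log2 scale. Mitochondrially encoded genes, used as a sign of RNA quality, had 2 higher, MT-ND3 (0.56) and MT-ND2 (0.34), and 1 lower, MT-ND6 (-0.35), of 13. Over all tested genes 20.2% were higher and 20.7% lower. Among the mitochondrially encoded genes, the number higher was 5 without control replicate 3 and 1 with DESeq2. The number lower was 0 without EV replicate 2 or 3, without control replicate 3 and with DESeq2, 3 without EV replicate 1, 2 with the replicate number as a block, and 4 without control replicate 2 and without the count filter. Their sum ranged from 7420 to 10400 CPM in EV-labelled and from 7500 to 10600 CPM in control-labelled libraries.

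**Figure D4:**
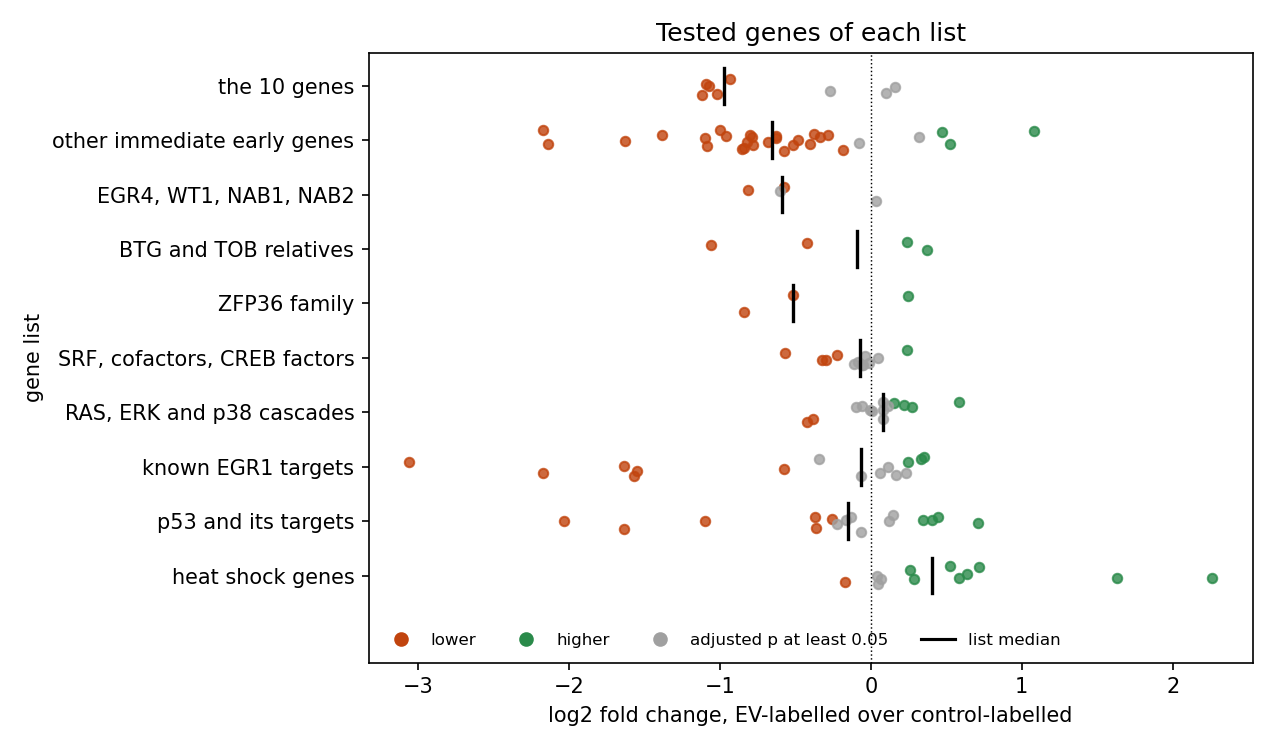
Log2 fold change, EV-labelled over control-labelled, of the tested genes in each list, with 1 point per gene and a black line at the list median; points are spread up and down only for sight. The 10 genes (8 tested) and the other immediate early genes have medians of -0.97 and -0.65, the cascade genes and SRF factors 0.08 and -0.07.

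The 5 genes whose pattern over the 6 libraries was nearest to the median profile of the 8 tested genes were THRA1/BTR, BLACAT1, RRNAD1, FOS and ECHDC2. Nearness was the root mean square difference between profiles of log2 CPM, each centred on its own mean, and it was 0.0389 to 0.0511 for these 5. FOS, the AP-1 subunit gene, averaged 2.28 CPM in EV-labelled and 3.97 CPM in control-labelled libraries (log2 fold change -0.80 ± 0.16 SE, adjusted p = 0.000593). The median profile mixes genes that fell with genes that did not pass the test. These 5 genes fell by 0.62 to 0.80 on the log2 scale. Their fall follows from picking them by nearness to this profile and is no separate evidence.

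In the authors' deposited table the fold changes run control over EV, as its own group means show. With the sign turned, the authors' deposited table gives log2 fold changes of -1.08 for IER2, -1.11 for EGR1, -1 for IER3, -0.92 for EGR3 and -1.06 for NR4A1. The authors' deposited table marks IER2, EGR1, IER3 and NR4A1 as Up, which in its control over EV direction means lower in EV-labelled libraries. It leaves EGR3 unmarked (q = 1.52e-12), which has the smallest fold change of the lower genes there. IER5 (q = 0.181), BTG2 (q = 0.526), EGR2 (q = 0.803), NR4A2 and NR4A3 are unmarked too. These values come from the same libraries and are no independent support.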

How the data were processed

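Poly(A) RNA of 6 PANC-1 libraries was sequenced in paired ends with a kit that keeps the strand, per the labels' protocols. TopHat, RSEM and the build hg19 appear in the submitters' processing notes without versions or roles, and no annotation release is named. For 32453 features the authors deposited raw counts, which are whole numbers. The 375 loci with only an assembly number, 0.099% to 0.134% of a library, were left out. The authors also deposited their own comparison, with log2 group means, log2 fold changes and p-values and q-values, by a method that no label or header names.

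The test was the quasi-likelihood F test of edgeR 4.0.16 (R 4.3.3) with its default prior count, TMM scaling and filterByExpr, over all 6 libraries, with Benjamini-Hochberg adjustment over all tested genes. Every adjusted p comes from this fit unless another tool, setting or test is named. Each fold change sets EV-labelled over control-labelled libraries, the SE is the coefficient over the square root of F, and intervals are 95%. A floor is 3 counts, which covers counting error only, since PCR reads without molecular identifiers are not independent molecules. No pair of replicates agreed within sampling noise. Nothing says that replicates were separate cultures, so p-values measure only the spread between libraries, which may be technical. Exon lengths come from GENCODE v29 (GRCh38).

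The 10 genes and all lists were chosen with earlier results of these data known. Named were all 10 genes, in each list the 3 called genes with the lowest adjusted p, all genes of short lists, and the 5 genes nearest in profile. Other genes named as exceptions to a count were chosen after their values were seen. So were KRT7, KRT8, KRT18, CDKN1A, FAS, ZMAT3, CNOT1, CRTC1, ARAF, RPS6KA5 and HSF2. Other settings tried were DESeq2 1.42.0, limma-voom (limma 3.58.1), 3 other scalings (library totals, upper quartile, median ratio), 2 other filters, a prior count of 2, each library left out, and a block for the replicate number. A 1.5-fold condition was added after the data were seen.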

Additional observations from a re-analysis of the deposited data

How the results depend on the processing

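EGR1, EGR3, IER2 and IER3 stayed lower and past the threshold in all 15 other settings, with log2 fold changes of -1.42 to -0.97 for EGR1, -0.99 to -0.84 for EGR3, -1.18 to -1.04 for IER2 and -1.14 to -0.86 for IER3. NR4A1 stayed lower in the 14 settings that tested it (-1.19 to -0.94) but missed the threshold with DESeq2 (-1.06) and without control replicate 3 (-0.94, adjusted p = 0.0542), and the cause was not tested. It fell under the filter of 1 CPM in 3 libraries, as did EGR2. IER5 (0.10 to 0.21), BTG2 (0.02 to 0.16) and EGR2 (-0.64 to 0.09) passed in none of the settings that tested them. The number of the 10 genes called lower was 4 or 5. Over all tested genes, 3036 were lower and 2965 higher, or 1090 lower and 538 higher when at least 1.5-fold was also required. Leaving out 1 library gave 2421 to 2806 lower and 2335 to 2806 higher. The replicate numbers did not pair the libraries: deviations of same-numbered libraries correlated at -0.0739, -0.0622 and -0.0962, and no library correlated best with its own number. The positive correlations were EV replicate 1 with control replicate 2 (0.196), EV 2 with control 3 (0.219) and EV 3 with control 1 (0.237). Because deviations were taken from each group's own mean, some positive and some negative correlations had to occur. Whether these libraries share a batch was not tested, and no block by that matching was fitted. With the replicate number as a block, 2897 genes were lower and 2846 higher, and the calls of the 10 genes did not change. No scaling moved the median of all genes by over 0.03 on the log2 scale. Depth limits EGR2, NR4A1, NR4A2 and NR4A3, which had 3 to 30 counts in a library.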
